A study of Mus musculus with 4 samples.

Results

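The cells described here are cortical interneurons picked by their Pvalb level, 805 of the 26987 cells in the deposited matrices. Pvalb encodes parvalbumin, a calcium buffer, and cells that carry it in cortex are mostly fast-spiking basket and chandelier interneurons, which arise in the medial ganglionic eminence. They fire brief action potentials at high rates through quickly closing potassium channels, release GABA with little delay onto the soma or axon initial segment of pyramidal cells, and carry many mitochondria.

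The study asked how loss of the NMDA receptor in developing interneurons changes their gene expression. Nkx2-1-Cre removed floxed Grin1, which encodes the obligatory NMDA receptor subunit, in the lineage of the medial ganglionic eminence; the null mice were Grin1 fl/fl and the WT mice Grin1 wt/wt, and both carried the Cre and the Ai14 TdTomato reporter, were littermates and were of both sexes. Frontal cortex and hippocampus of mice of postnatal days 18 to 20 were sliced and dissociated with blockers of sodium channels, NMDA receptors and transcription, TdTomato-positive cells were sorted, and unique molecular identifiers (UMIs), each standing for 1 captured RNA molecule, were counted per gene and cell. The Cre line limits the cells to its own lineage, several mice went into a replicate, and a library is the replicate here: 3 for WT cortex, 2 for null cortex. All levels below are CPM, the UMIs of a gene scaled to a common total of all UMIs, from 3' tags and not scaled to gene length, so levels are compared within a gene and not between genes.

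A cell counted as an interneuron if it had at least 200 and at most 6000 genes, under 30% mitochondrial UMIs, at least 2 UMIs of Gad1 and Gad2 together and no Mog UMI, which 5849 of 12167 cortical barcodes met. Pvalb cells were those with at least 500 CPM of Pvalb and at least 2 Pvalb UMIs, under 3000 CPM of Sst, under 2 Th UMIs, no Crabp1 UMI and under 3 Pthlh UMIs. These 8 genes chose the cells, so their levels describe the choice and were not tested. The lowest Pvalb level inside the limit was 502 CPM, and the highest among the 136 cells kept out by it alone was 492. The highest Sst level inside was 2934 CPM, and the lowest among the 63 cells kept out by Sst alone was 3053.

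The WT libraries held 92, 293 and 345 Pvalb cells and the null libraries 20 and 55. Their median UMIs per cell were 7946.5, 5023 and 9867 in WT and 6911 and 15691 in null, so null cortex 2 was the deepest and WT cortex 2 the shallowest. Null cortex 2 also had 287 barcodes at or over 30% mitochondrial UMIs, against 0 to 4 in the other cortical libraries. The median mitochondrial share of Pvalb cells was 2.05, 2.43 and 2.15% in WT and 1.92 and 3.33% in null, above the 1.21, 1.51, 1.39, 1.29 and 2.13% of the other interneurons of the same libraries. Mitochondrial share was part of the cell limits and was not tested. Cortical libraries shared 13 barcodes over all pairs, none of them between Pvalb cells. Scrublet, a doublet caller, marked 314 of 26201 cells over all libraries and 1 cortical Pvalb cell; it marked 2 of 3830 cells in WT cortex 2, so few doublets were called there. Libraries were matched to the study's replicates by cell number, and by that match chemistry 2 of the kit was used for replicate 1 of each group and chemistry 3 for the others. The Pvalb cells of a cortical library summed to between 179442 UMIs (null cortex 1) and 3663907 UMIs (WT cortex 3).

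Pvalb cells made up 12.0, 17.0 and 15.4% of cortical interneurons in the WT libraries (95% exact binomial intervals 9.78 to 14.5, 15.2 to 18.8 and 14.0 to 17.0). In the null libraries they made up 15.7 and 5.54% (9.89 to 23.3 and 4.20 to 7.15). Null cortex 1 lay within the WT range and null cortex 2 below it. The rule leaves out cells with Crabp1 or with at least 3 Pthlh UMIs. These limits and that on Th are UMI counts, so a deeper cell reaches them at a lower CPM. Null cortex 2 had the deepest Pvalb cells, with a median of 15691 UMIs. In the other interneurons of null cortex 2, Crabp1 stood at 125 CPM and Pthlh at 161. The other cortical libraries had 8.58 to 20.8 and 22.2 to 57.4. The part of such cells, and of depth, in the share was not tested. The means were 14.8% ± 2.55 (SD, n = 3) and 10.6% ± 7.22 (SD, n = 2), a difference of -4.16 percentage points (two-sided exact permutation test, p = 0.5, smallest possible p = 0.1). Without null cortex 2 the difference was 0.949 points, and without null cortex 1 it was -9.26. The sort sets which interneurons these are shares of.

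The name given to the cells was checked against Tac1, Tcap, Syt2 and Cox6a2, marker genes that the rule did not use. Counts were summed per library over the Pvalb cells and over the other cortical interneurons, and edgeR's quasi-likelihood test compared both sums with the library as a block; genes with an adjusted p below 0.01 whose change reached 0.1 on the natural-log scale (0.144 on the log2 scale) are said to be called. All 4 were called higher in WT, where 11.8% of the 11843 genes tested were. The cells were split by Pvalb and the other rule genes in the same data, so these calls describe what goes with that split. Tac1, the precursor of substance P, stood at 1458, 1136 and 2111 CPM in the WT Pvalb cells and 201, 246 and 433 in the other interneurons (log2 change 2.43 ± 0.14 (SE), adjusted p = 6.29e-16). Tcap, first known from the muscle sarcomere, stood at 345, 296 and 299 CPM in the WT Pvalb cells and 49.2, 54.5 and 70.3 in the other interneurons (log2 change 2.38 ± 0.10 (SE), adjusted p = 7.74e-19). For both genes every WT library of Pvalb cells lay above every library of other interneurons.

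Syt2, a fast calcium sensor of transmitter release, stood at 87.3, 134 and 177 CPM in the WT Pvalb cells and 13.9, 5.20 and 13.3 in the other interneurons (log2 change 3.73 ± 0.16 (SE), adjusted p = 8.08e-19). Cox6a2, the heart and muscle form of a cytochrome oxidase subunit, stood at 521, 544 and 686 CPM in the WT Pvalb cells and 139.6, 127 and 152 in the other interneurons (log2 change 2.07 ± 0.09 (SE), adjusted p = 2.55e-19). Neither gene's levels overlapped between the cell classes. All 4 markers were also called higher in the null libraries. Levels were 1126 and 1046 against 141 and 454 CPM for Tac1 and 72.4 and 174 against 6.93 and 71.9 for Tcap. They were 289.8 and 178 against 10.9 and 10.9 for Syt2 and 435 and 493 against 146 and 256 for Cox6a2. With no library block, Tac1, Tcap and Cox6a2 lost their call in null. On GRCm38, Pvalb lies at chr15:78191114-78206400, Tac1 at chr6:7554879-7565834, Tcap at chr11:98383811-98384953, Syt2 at chr1:134646677-134762593 and Cox6a2 at chr7:128205435-128206387.

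**Figure D1:**
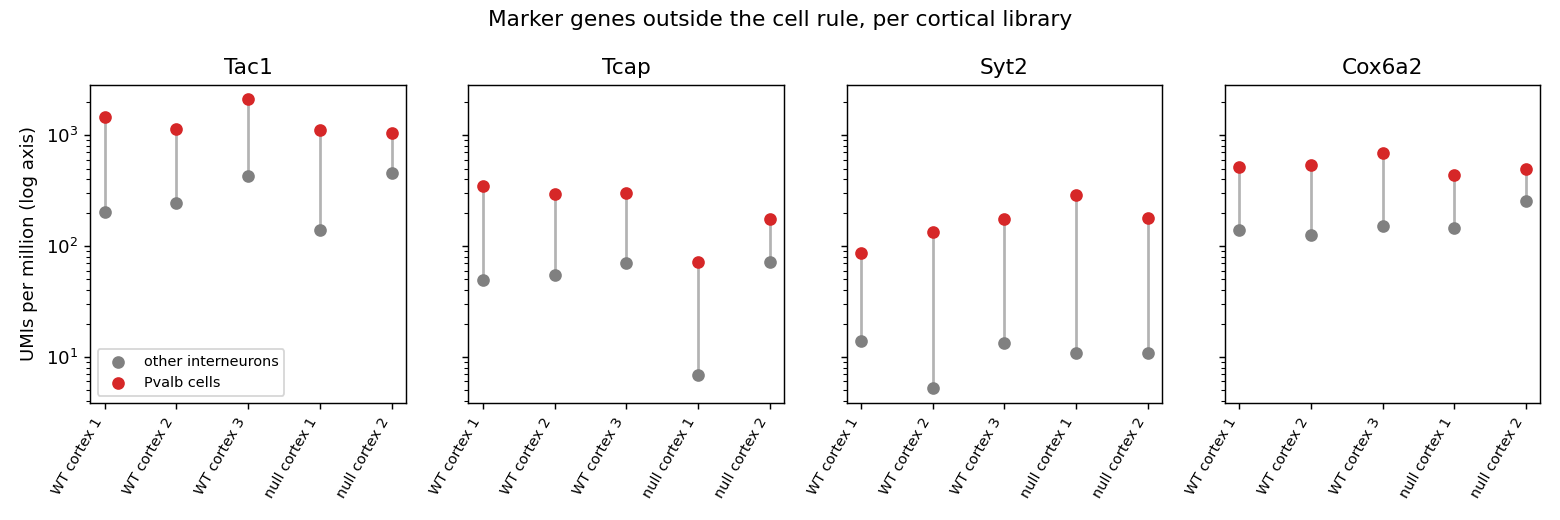
CPM of Tac1, Tcap, Syt2 and Cox6a2, on a log axis, in the Pvalb cells and the other interneurons of each cortical library. A line joins both sums of a library, and the Pvalb cells are the higher in each of the 5 libraries for each gene.

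How many of the Pvalb cells carried a marker was read next. With each cell thinned to 1000 UMIs, Tac1 had a UMI in 52.2, 45.5, 57.7, 35 and 47.2% of Pvalb cells over WT cortex 1 to 3 and null cortex 1 and 2 (unthinned 81.5, 70.0, 80, 50 and 69.1%). In oligodendrocytes (at least 2 Mog UMIs, no Gad1 or Gad2), which should lack it, the thinned share was 0.35, 0.327, 1.47, 0 and 0.331%. The 95% intervals of Pvalb cells and oligodendrocytes did not overlap in 4 libraries. In null cortex 1, with 7 of 20 Pvalb cells (15.4 to 59.2%) and 0 of 18 oligodendrocytes (0 to 18.5%), they did. Many Pvalb cells had no Tac1 UMI at this depth. Thinned shares were lower for Syt2, at 5.4, 9.31, 14.0, 15 and 13.2% (unthinned 40.2, 35.5, 67.25, 45 and 67.3%). For Tcap the thinned shares were 29.35, 28.6, 27.7, 10 and 13.2%. Thinned shares for Cox6a2 were 39.1, 38.6, 43.1, 25 and 37.7% (unthinned 91.3, 81.2, 94.5, 65 and 85.5%) against 0, 0.327, 0.245, 0 and 0.331% in oligodendrocytes, with intervals that again overlapped in null cortex 1. Cells under 1000 UMIs could not be thinned, which left out 3 Pvalb cells of WT cortex 2 and 2 each of WT cortex 3 and null cortex 2. It left out 142 of 754 oligodendrocytes in WT cortex 2, 19 of 427 in WT cortex 3 and 48 of 954 in null cortex 2, so their shares are of the deeper cells. The unthinned median UMIs of all the oligodendrocytes were 6333, 2678, 6286, 6391.5 and 7991.5. Among cells of WT cortex 3 the quartiles of Tac1 were 148 and 3370 CPM, while those of Cox6a2 were 374 and 938, so Tac1 varied over a wider range than Cox6a2 relative to its median.

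Of the 11843 genes tested, 1401 were called higher and 1465 lower in WT Pvalb cells than in the other interneurons, together 24.2%, and the median log2 change of all of them was -0.00365. Among genes reaching 20 CPM in the higher class and higher in all 5 libraries, the largest rises after Syt2 were in Prss23, a secreted serine protease, at 176, 96.6 and 138 CPM in the WT Pvalb cells and 15.1, 10.7 and 15.9 in the other interneurons (log2 change 3.24 ± 0.12 (SE), adjusted p = 6.87e-21), and in Lmo2, a transcriptional adaptor, at 129, 78.4 and 111 CPM in the WT Pvalb cells and 14.4, 10.0 and 13.6 in the other interneurons (log2 change 3.05 ± 0.12 (SE), adjusted p = 5.37e-20). In both genes each WT library of Pvalb cells lay well above each library of other interneurons. Next came the myosin-binding protein gene Mybpc1 (log2 change 3.0), the lipoprotein lipase gene Lpl (2.63), the sialyltransferase gene St3gal6 (2.61), the matrix proteases Adamts15 (2.52) and Adamts8 (2.48) and the transcription factor gene Sox5 (2.39). DESeq2 called 705 higher and 815 lower, and 158 and 312 were called without the library block. Without WT cortex 3 the counts were 699 and 726.

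The largest falls, chosen in the same way, were mostly in genes with 3 or fewer UMIs in the WT Pvalb cells. Cells with at least 3000 CPM of Sst were put among the other interneurons by the rule. Falls of genes that Sst cells carry, such as Chodl, thus go with the choice of cells and are no independent check. Ppapdc1a had no UMI in the WT Pvalb cells and was at least 62.2-fold lower, taking a floor of 3 UMIs over the group. Chodl, a marker of long-range Sst cells, had 1 UMI and was 272-fold lower in the summed WT counts (95% exact counting interval 48.6 to 10730). Pdyn, the dynorphin precursor, had 3 UMIs and was 173-fold lower in the summed WT counts (95% exact counting interval 59.1 to 839). For Tac2 (2 UMIs), Myh8 (3) and Tmem255a (2) the ratios were 193, 91.8 and 59.9, with intervals of 53.3 to 1592, 31.4 to 446 and 16.5 to 496. Calb2, encoding the calcium buffer calretinin, stood at 0, 1.25 and 2.73 CPM in the WT Pvalb cells and 106, 229 and 291 in the other interneurons (log2 change -6.96 ± 0.20 (SE), adjusted p = 3.11e-23). The transcription factor genes Npas1 (log2 change -5.82) and Nr2f2 (-5.67) and the phosphodiesterase gene Pde1a (-5.82) fell as well. They had 18, 7 and 20 UMIs in the WT Pvalb cells. Over leave-outs they ran from -6.40 to -5.10, -6.23 to -5.00 and -6.01 to -5.55.

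Potassium channels that close quickly after a spike let cells fire at high rates. Of a list of Kv3 and other potassium channel genes of fast-spiking cells, 16 of 16 listed genes were tested. Of them 12 were called higher and 1 lower, with a median log2 change of 0.89, beside -0.00365 over all genes. The list also holds accessory subunits and a Kv1 channel gene. Of all genes tested 11.8% were called higher and 12.4% lower, shares that apply beside each list count here. The lists were chosen with earlier results of these data known. Each list count thus describes the cells and is not independent evidence. The largest change was in Kcnip2, a subunit that tunes A-type channels, at 306, 187 and 184 CPM in the WT Pvalb cells and 63.2, 42.9 and 41.5 in the other interneurons (log2 change 2.17 ± 0.09 (SE), adjusted p = 5.37e-20). Among the rises, Kcnab3, a beta subunit of Kv1 channels, followed at log2 change 1.93, and Kcna1, encoding Kv1.1, at 1.43. The Kv3 genes given next were named after their values were seen, and they moved in both directions. Kcnc1 stood at 834, 705 and 719 CPM in the WT Pvalb cells and 346, 253 and 253 in the other interneurons (log2 change 1.42 ± 0.08 (SE), adjusted p = 2.92e-16), and Kcnc2 changed by 1.07. Kcnc4 fell, at 29.1, 13.2 and 19.4 CPM in the WT Pvalb cells and 71.7, 53.7 and 58.4 in the other interneurons (log2 change -1.62 ± 0.15 (SE), adjusted p = 8.01e-11). Kcnc1 and Kcnc2 were higher, and Kcnc4 lower, in all 5 libraries.

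For sodium channels and their partners, 9 of 11 listed genes were tested, 4 were called higher and 4 lower, with a median log2 change of 0.12. Scn1a, encoding Nav1.1, stood at 297, 504 and 550.0 CPM in the WT Pvalb cells and 153, 258 and 241 in the other interneurons (log2 change 1.05 ± 0.09 (SE), adjusted p = 6.61e-12). Scn3a, an early-expressed channel, moved the other way, at 7.59, 15.1 and 10.9 CPM in the WT Pvalb cells and 32.6, 53.2 and 44.7 in the other interneurons (log2 change -1.96 ± 0.17 (SE), adjusted p = 1.47e-11). The accessory genes Fgf13 and Scn3b changed by -1.39 and -1.21. The members thus changed in both directions.

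**Figure D2:**
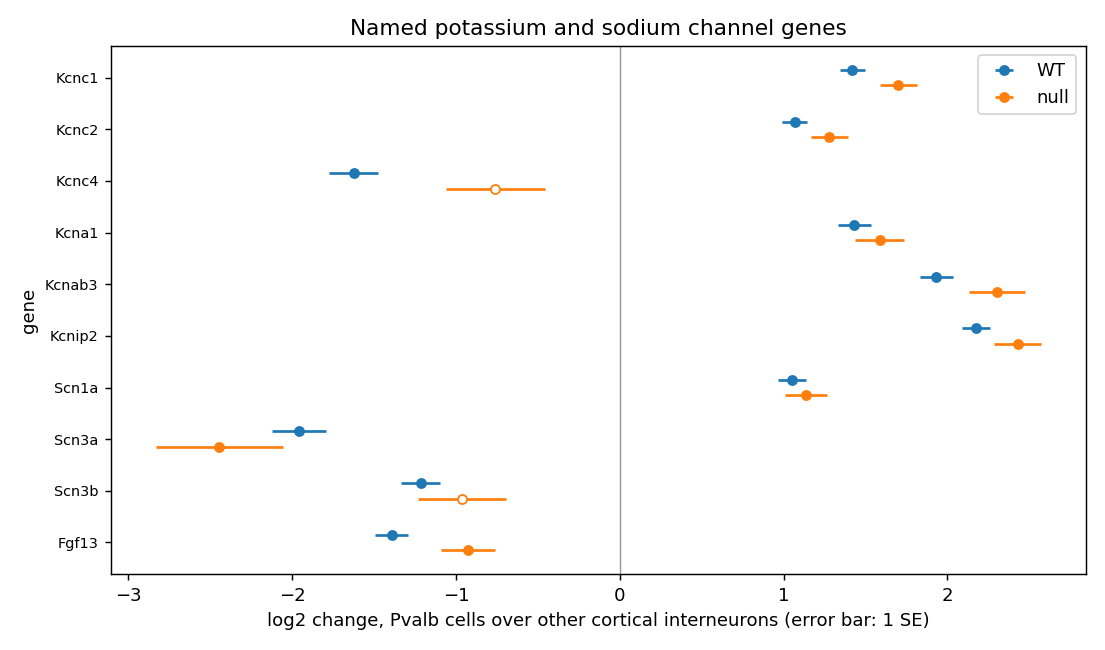
Log2 change between Pvalb cells and other cortical interneurons for the potassium and sodium channel genes named here, in WT and null libraries, with 1 SE; filled points were called. In both genotypes the potassium channel genes shown lie right of 0 except Kcnc4, while of the sodium channel genes and partners only Scn1a does.

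In the release machinery, 20 of 21 listed genes were tested, 7 were called higher and 7 lower, with a median log2 change of 0.00. Cplx2, a complexin that clamps and triggers fusion, stood at 13.9, 18.8 and 13.4 CPM in the WT Pvalb cells and 219, 285 and 302 in the other interneurons (log2 change -4.23 ± 0.14 (SE), adjusted p = 3.60e-22), while Cplx1, named after its values were seen, stood at 1384, 1726 and 1082 CPM in the WT Pvalb cells and 688, 723 and 467 in the other interneurons (log2 change 1.16 ± 0.08 (SE), adjusted p = 3.67e-14). The Pvalb cells were low for Cplx2 and high for Cplx1 in every library. Vamp1, a vesicle fusion protein, changed by 1.31 and the priming factor gene Unc13c by -5.32. Unc13c had 10 UMIs in the WT Pvalb cells and ran from -5.99 to -4.18 over leave-outs. Snap25, a fusion protein of the plasma membrane, was not called and stood at 2211, 1664 and 1246 CPM in the WT Pvalb cells and 2573, 1424 and 1214 in the other interneurons.

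Among muscle-like and energetic genes, 14 of 16 listed genes were tested, 13 were called higher and 0 lower, with a median log2 change of 0.65. Esrrg, a nuclear receptor that drives mitochondrial genes, stood at 51.9, 69.6 and 73.1 CPM in the WT Pvalb cells and 15.5, 21.8 and 14.8 in the other interneurons (log2 change 2.0 ± 0.15 (SE), adjusted p = 4.71e-13). Ppargc1a, its coactivator, was named after its values were seen and stood at 336, 350.1 and 316 CPM in the WT Pvalb cells and 125, 139 and 133 in the other interneurons (log2 change 1.32 ± 0.08 (SE), adjusted p = 1.69e-15). Both were higher in Pvalb cells in all 5 libraries. Mitochondrial share, given above, was higher in the same sums, and its part in these changes was not tested.

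Of the calcium-binding genes besides Pvalb, 14 of 14 listed genes were tested, 0 were called higher and 7 lower, with a median log2 change of -0.62. After Calb2, S100a10 (log2 change -4.17), Necab2 (-2.53) and Calb1 (-2.10), which encodes calbindin, fell most. Calb1 was not called by DESeq2. Among genes of the perineuronal net, a matrix that wraps these cells, 12 of 17 listed genes were tested, 5 were called higher and 4 lower, with a median log2 change of -0.02. Acan, its core proteoglycan, stood at 2.53, 8.78 and 9.83 CPM in the WT Pvalb cells and 0.18, 0.52 and 1.13 in the other interneurons (log2 change 3.37 ± 0.43 (SE), adjusted p = 1.23e-07). Its level was low throughout, with 52 UMIs over the WT Pvalb cells, and without WT cortex 3 it did not pass the low-count filter and was not tested. Hapln4, a link protein, changed by 2.20 and the secreted phosphoprotein gene Spp1 by -1.64, or by -0.46 and uncalled without WT cortex 3; Spp1 was lower in 4 of 5 libraries. Hapln1, another link protein, was named after its values were seen and stood at 27.8, 46.4 and 56.2 CPM in the WT Pvalb cells and 106, 124 and 111 in the other interneurons (log2 change -1.25 ± 0.12 (SE), adjusted p = 2.46e-10). Set against only the cells with at least 3000 CPM of Sst, Hapln1 was instead called higher, with a log2 change of 2.22, so its direction depends on which interneurons it is set against.

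Of the transcription factors and related genes of the lineage, 20 of 21 listed genes were tested, 3 were called higher and 7 lower, with a median log2 change of -0.16. Mef2c, an activity-responsive factor, stood at 1094, 1398 and 1356 CPM in the WT Pvalb cells and 432, 592 and 525 in the other interneurons (log2 change 1.31 ± 0.07 (SE), adjusted p = 7.66e-16). The synaptic protein gene Elfn1, on the same list, changed by -4.56 (-5.31 to -4.01 over leave-outs). The lineage factors Lhx6 and Sox6 were not called, with log2 changes of -0.18 and -0.07. For GABA synthesis and transport, 7 of 7 listed genes were tested, 2 were called higher and 1 lower, with a median log2 change of 0.16. The GABA transaminase gene Abat (0.65) rose, and the chloride importer gene Slc12a2 (-1.14) was called lower, though not without WT cortex 3 (-0.60). Slc12a2 was higher in Pvalb cells in WT cortex 1 (12.6 against 12.3 CPM) and null cortex 1 (16.7 against 7.92).

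For GABA-A receptors, 12 of 12 listed genes were tested, 6 were called higher and 4 lower, with a median log2 change of 0.17. Gabrd, a subunit of extrasynaptic receptors, stood at 169, 193 and 299 CPM in the WT Pvalb cells and 55.5, 45.9 and 88.2 in the other interneurons (log2 change 1.82 ± 0.10 (SE), adjusted p = 3.19e-16). Gabrd was higher in Pvalb cells of every library, and Gabra2 was lower in every library (-1.91). Gabrg1 was called lower (-1.32), but not without WT cortex 3 (-0.98), and it was higher in Pvalb cells in WT cortex 1 (16.4 against 14.4 CPM) and null cortex 1 (11.1 against 5.94). For AMPA, kainate and metabotropic glutamate receptors, 16 of 18 listed genes were tested, 3 were called higher and 7 lower, with a median log2 change of -0.15, and falls were called in Grm4 (-2.44), Cacng3 (-2.09) and Grik3 (-1.94). Of the NMDA receptor subunits, 5 of 7 listed genes were tested, 0 were called higher and 2 lower, with a median log2 change of -0.13. Grin3a, a subunit that lowers calcium entry, stood at 6.32, 27.0 and 9.28 CPM in the WT Pvalb cells and 255, 386 and 429.5 in the other interneurons (log2 change -4.80 ± 0.18 (SE), adjusted p = 1.01e-20), and Grin2a changed by -0.75. The call of Grin2a was lost by DESeq2 and with no library block. Over leave-outs Grin3a ran from -5.47 to -4.16. Grin1 and Grin2b were not called between these classes (-0.13 and -0.05).

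In wiring and adhesion genes, 26 of 26 listed genes were tested, 8 were called higher and 9 lower, with a median log2 change of -0.12. Erbb4, the neuregulin receptor, stood at 328, 667 and 461 CPM in the WT Pvalb cells and 127, 236 and 169 in the other interneurons (log2 change 1.45 ± 0.08 (SE), adjusted p = 1.58e-16). The guidance gene Slit2 changed by 1.49, and the adhesion genes Cdh4 and Cntn4 by -2.79 and -1.86. Among activity-regulated genes, 13 of 14 listed genes were tested, 1 was called higher and 6 lower, with a median log2 change of -0.55. Ostn, encoding the secreted osteocrin, stood at 51.9, 32.6 and 64.7 CPM in the WT Pvalb cells and 3.78, 3.90 and 5.90 in the other interneurons (log2 change 3.43 ± 0.17 (SE), adjusted p = 4.70e-17). Nptx2 (-1.49) and Egr1 (-0.99) fell, and Egr1, lower in 4 of 5 libraries, was not called without WT cortex 3 (-0.57). WT cortex 2 stood apart for immediate early genes in both classes: Fos, named for this after its values were seen, stood at 12.6, 202 and 19.4 CPM in the WT Pvalb cells and 22.7, 233 and 39.9 in the other interneurons. Its part in the results was not tested.

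Genes that divide Pvalb cells into subtypes and mark other classes were read next. Of the subtype genes, 14 of 18 listed genes were tested, 3 were called higher and 7 lower, with a median log2 change of -0.46. Npy, a neuropeptide, stood at 511, 718 and 573 CPM in the WT Pvalb cells and 7741, 13428 and 7522 in the other interneurons (log2 change -3.96 ± 0.12 (SE), adjusted p = 1.08e-22), and Reln (-3.41) and Crh (-5.11) fell as well. Crh had 18 UMIs in the WT Pvalb cells, and its log2 change ran from -6.52 to -4.04 over leave-outs. All 11 tested Sst-class markers and all 5 neurogliaform markers were lower. The rule put cells with at least 3000 CPM of Sst among the other interneurons. Lower Sst-class markers thus go with the choice of cells and are no independent check. The Sst-class markers summed to 569, 789, 614, 808 and 845 CPM in the Pvalb cells, mostly Npy, against 8596, 14880 and 8645 in the other WT interneurons. None of these genes was at 0. Of the markers of the caudal ganglionic eminence, 5 of 6 listed genes were tested, 1 was called higher and 4 lower, with a median log2 change of -3.23; Cck, the higher of them, stood at 957, 672 and 1268 CPM in the WT Pvalb cells and 192, 209 and 265 in the other interneurons (log2 change 2.09 ± 0.11 (SE), adjusted p = 1.30e-16).

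Markers of non-neuronal cells and pyramidal cells were summed over WT cortex 1 to 3 and null cortex 1 and 2. Microglial markers summed to 3.79, 0, 4.37, 0 and 0 CPM in the Pvalb cells, against 1.62, 0.78, 6.61, 0 and 0.799 in the other interneurons, with C1qa the most abundant and Tmem119 at 0. Vascular markers summed to 0, 5.65, 0.546, 0 and 4.06, against 3.24, 14.0, 3.75, 1.98 and 2.96, with Rgs5 the most abundant and Vtn at 0. Glutamatergic markers summed to 60.7, 125, 71.0, 66.9 and 75.7, against 52.1, 113, 83.3, 51.5 and 64.8, and were higher in Pvalb cells in 4 of 5 libraries. They were mostly Camk2a, which was the 1 gene of that list tested and was not called. Oligodendrocyte markers summed to 169, 87.2, 142, 89.2 and 134 against 176, 119, 215, 119 and 150.2. Of these markers, 5 of 8 listed genes were tested, 0 were called higher and 2 lower, with a median log2 change of -0.46. Astrocyte markers summed to 129, 97.3, 54.0, 55.7 and 100.04, against 54.9, 49.1, 49.4, 30.7 and 72.0, higher in Pvalb cells in all 5 libraries. Of these markers, 2 of 6 listed genes were tested, 1 was called higher and 0 lower, with a median log2 change of 0.68. The gene called was Aldoc (1.35), the most abundant of them, at 60.7, 36.4, 44.2, 50.2 and 96.0 CPM against 29.5, 14.4, 15.4, 17.8 and 56.1. Without Aldoc the sum of the other astrocyte markers was higher in Pvalb cells in WT cortex 1 and 2 and lower in WT cortex 3 and both null libraries. The part of these markers in the class differences was not tested. Of stress genes, 6 of 8 listed genes were tested, 1 was called higher and 0 lower, with a median log2 change of 0.21, with Ddit3 the gene called (0.68), beside 11.8% called higher over all genes. Summed, stress genes were higher in Pvalb cells in all 5 libraries, at 2999, 2945, 3253, 3383 and 2089 CPM against 2565, 2572, 2705, 3055 and 1761, and the part of RNA quality in the class differences was not tested. Of genes the study names for these cells, 22 of 23 listed genes were tested, 8 were called higher and 8 lower, with a median log2 change of 0.10; since the study chose them on these samples, the count is not independent evidence.

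In the null libraries 434 genes were called higher (3.66% of those tested) and 530 lower (4.48%) in Pvalb cells than in other interneurons, together 8.14%. Without null cortex 2 the counts were 125 and 134. The test of the difference between both class effects called 3 genes (0.0253%), 1 with a positive null-minus-WT value (Spon1, 0.00844%) and 2 with a negative one (0.0169%), and 851 had an unadjusted p under 0.05. Cox6a2 had a class difference of 2.07 in WT and 1.05 in null on the log2 scale. Its level in the other interneurons of null cortex 2, 256 CPM, lay above the 139.6, 127, 152 and 146 of the other libraries. In those cells of null cortex 2 Crabp1 stood at 125 CPM and Pthlh at 161. The other libraries, in the same order, had 10.6, 8.58, 14.8 and 20.8 for Crabp1. For Pthlh they had 47.9, 32.2, 22.2 and 57.4. The part of such cells in the Cox6a2 difference was not tested. Scg2, a secretory granule protein gene, stood at 729, 660.1 and 870.1 CPM in WT Pvalb cells and 373 and 338 in null ones, and at 551, 622, 622, 561 and 553 in the other interneurons. Spon1, encoding a matrix protein, stood at 47.3 CPM in the Pvalb cells of null cortex 2, against 12.6, 15.1, 7.92 and 11.1 in the others, and at 121, 79.9, 103, 75.3 and 42.1 in the other interneurons. In Pvalb cells the genotypes did not overlap for Scg2 and Cox6a2 (521, 544 and 686 CPM in WT, 435 and 493 in null), as for 20.1% of all genes tested between genotypes, and overlapped for Spon1. With no library block none of the 3 was called. Without null cortex 2, 1 gene was called, and none of these 3 was. Without WT cortex 3, 1 gene was called and again none of the 3, without WT cortex 1 Scg2 was not called, and 15 genes were called without WT cortex 2 and 40 without null cortex 1. Tcap was called for this difference without null cortex 1, at -1.20, and without the low-count filter (-1.07, adjusted p = 1.12e-04), and had a difference of 0.96 without null cortex 2.

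The targeted gene was read first when Pvalb cells were compared between genotypes. Grin1 (chr2:25291181-25319187) stood at 124, 243 and 187 CPM in WT and 50.2 and 29.7 in null, and the groups did not overlap. It had 31 UMIs over the null Pvalb cells. Its log2 change was -2.38 ± 0.427 (SE), and it was not called, with an edgeR adjusted p of 0.155 over 9649 genes. Over the alternatives the adjusted p ran from 8.87e-05 without the low-count filter to 0.9998 without null cortex 2; DESeq2 gave 0.00509. Within replicate 1 the log2 difference was -1.29 and within replicate 2 it was -2.99, each in the same chemistry. Whether the counted 3' tags lie in the deleted part of Grin1 is not given in the sources used here.

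By edgeR no gene was called between null and WT Pvalb cells (0%), with 288 genes at an unadjusted p under 0.05, while DESeq2 called 1, Grin1, and the fit without a low-count filter 11. The fit used 8 libraries, hippocampal ones included for the spread, since WT hippocampus 1 and null hippocampus 1 had under 10 Pvalb cells. Without WT cortex 2, 1 gene was called. All 4 markers tested had groups that did not overlap, as did 20.1% of all genes. Tcap stood at 345, 296 and 299 CPM in WT and 72.4 and 174 in null, Tac1 at 1458, 1136 and 2111 CPM in WT and 1126 and 1046 in null and Cox6a2 at 521, 544 and 686 CPM in WT and 435 and 493 in null. These were lower in both null libraries than in any WT library, whereas Syt2 was higher, at 87.3, 134 and 177 CPM in WT and 289.8 and 178 in null. Hapln1, Ostn and Rspo3, the last with the lowest p, were chosen after their values were seen. Hapln1 stood at 27.8, 46.4 and 56.2 CPM in WT and 78.0 and 178 in null and Ostn at 51.9, 32.6 and 64.7 CPM in WT and 0 and 10.8 in null. Rspo3, a secreted Wnt enhancer gene, stood at 45.5, 40.2 and 28.1 CPM in WT and 0 and 2.70 in null (adjusted p = 0.155). Among the partners of Grin1, Grin2b stood at 366, 577 and 496 CPM in WT and 451 and 418 in null, with overlapping groups, and Grin2a at 20.2, 35.1 and 46.1 CPM in WT and 5.57 and 17.6 in null, without overlap. Over both null libraries the Pvalb cells held 14 UMIs of Grin2a and 8 of Ostn. The Pvalb cells of null cortex 1 summed to 179442 UMIs, so low CPM values there rest on few UMIs. The part of the depth and mitochondrial share of null cortex 2 in these genotype differences was not tested.

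**Figure D3:**
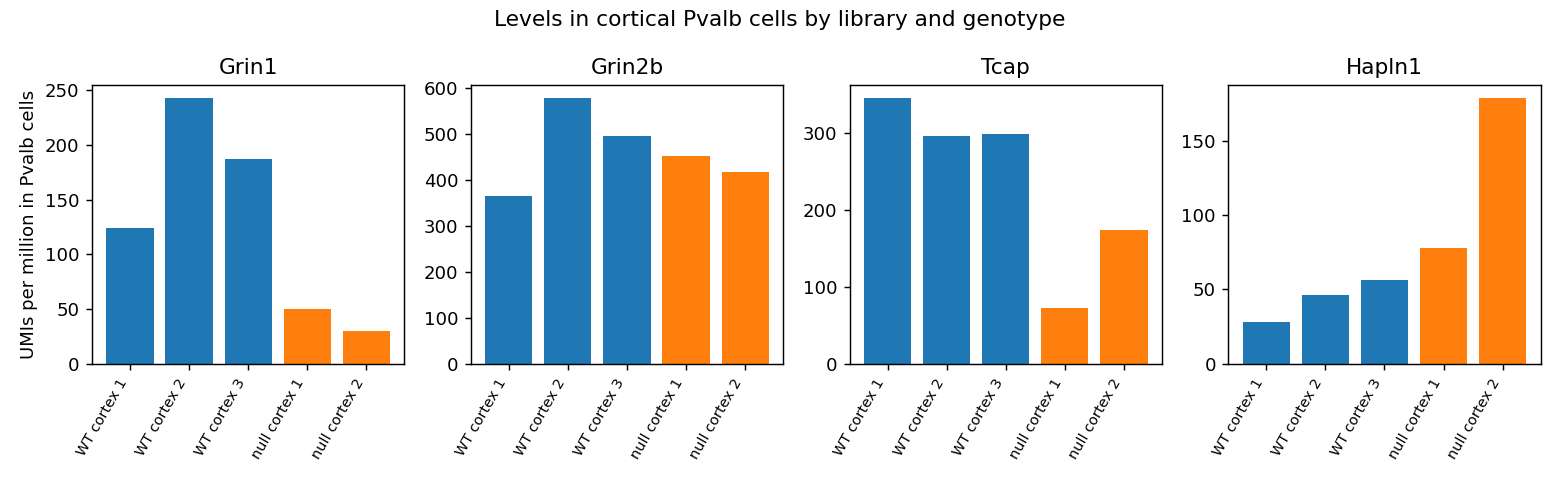
CPM of Grin1, Grin2b, Tcap and Hapln1 in the cortical Pvalb cells of each library, WT in blue and null in orange. The null libraries are the lowest for Grin1 and Tcap and the highest for Hapln1, while Grin2b overlaps.

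The same rule found 240 Pvalb cells in the hippocampus, and WT libraries with at least 10 of them (2 of hippocampus, 3 of cortex) were compared. WT hippocampus 2 and 3 held 97 and 15 Pvalb cells, with median UMIs per cell of 3160 and 14539. Their sums were 358708 and 179589 UMIs, so low CPM values there rest on few UMIs. edgeR called 21 genes higher in hippocampus (0.218%) and 0 lower; 726 had an unadjusted p under 0.05, and DESeq2 called 43 higher and 5 lower. Markers of some other classes lay higher in the Pvalb cells of hippocampus too: 6 of 6 tested somatostatin-cell markers had a positive log2 change (median 1.46, 1 called, Cbln4), as did 4 of 4 of neurogliaform cells (2.56, 0 called) and 5 of 5 of oligodendrocytes (1.52, 0 called), beside a median of -0.02 over all genes. Their part in the 21 genes was not tested. The regulator of G-protein signalling gene Rgs10 stood at 20.2, 18.2 and 25.4 CPM in cortex and 248 and 568 in hippocampus (log2 change 4.15 ± 0.46 (SE), adjusted p = 5.58e-04), and its relative Rgs8 at 0, 1.25 and 1.36 CPM in cortex and 53.0 and 50.1 in hippocampus (5.37, adjusted p = 5.58e-04). Nrp1, a semaphorin receptor, stood at 2.53, 0.627 and 0.273 CPM in cortex and 44.6 and 27.8 in hippocampus, and Pde3a, a phosphodiesterase, at 0, 0.627 and 0 CPM in cortex and 27.9 and 27.8 in hippocampus. Each of these was lower in all 3 WT cortical libraries than in both hippocampal ones, as 25.3% of all genes were separated in either direction. The peptide receptor gene Rxfp3, the synapse organizer gene Cbln4, the channel gene Trpc5, the ligand gene Wnt5a, Shisa6 and Cd59a were also among the largest rises. Hapln1 stood at 27.8, 46.4 and 56.2 CPM in cortex and 231 and 217 in hippocampus. Rgs10 was called with each library left out in turn. Rgs8 was not called without WT hippocampus 2 (5.27), and Nrp1 and Pde3a were not called without WT hippocampus 2 (5.03 and 6.63), WT cortex 3 (4.71 and 5.65), null cortex 1 (5.55 and 6.72) or null hippocampus 2 (5.54 and 6.62). Of Rxfp3, Cbln4, Trpc5, Wnt5a, Shisa6, Cd59a and Hapln1, calls were lost too. Without WT cortex 1, Shisa6 and Hapln1 were not called. Without WT cortex 3, all 7 were not called. Without WT hippocampus 2, all 7 were not called. Without WT hippocampus 3, Shisa6 was not called. Without null cortex 1, all 7 were not called. Without null cortex 2, Trpc5, Wnt5a and Shisa6 were not called. Without null hippocampus 2, Rxfp3, Cbln4, Wnt5a, Shisa6, Cd59a and Hapln1 were not called, and Trpc5 did not pass the low-count filter and was not tested. Over leave-outs the log2 changes were Rxfp3 4.21 to 7.12, Cbln4 5.17 to 5.88, Trpc5 3.25 to 5.62, Wnt5a 3.13 to 5.74, Shisa6 4.03 to 5.42, Cd59a 2.82 to 4.90 and Hapln1 2.11 to 2.56. Rxfp3 was not called by DESeq2 (adjusted p = 0.232). With the replicate number as a block 27 genes were called higher and 8 lower, and Cbln4 (adjusted p = 0.0181) and Trpc5 (0.0261) were not called. By edgeR, Cbln4 (adjusted p = 0.0765), Shisa6 (0.0207) and Hapln1 (0.0256) were not called with the lower Sst maximum of 500 CPM. The higher Pvalb minimum of 1000 CPM and 3 UMIs left WT hippocampus 3 with 9 Pvalb cells, under the 10 needed for a sum. With WT hippocampus 2 alone in its group, the log2 changes were 3.71 for Shisa6 and 6.31 for Pde3a.

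The other genes called, named after their values were seen, were Timp3, C1ql1, Khdrbs2, Col25a1, Rph3a, Olfm3, Fabp5, Dgkg, Spats2l and Ap1s2, with log2 changes of 2.25 for Ap1s2 to 3.77 for Timp3. Without WT cortex 1, Rph3a, Fabp5, Spats2l and Ap1s2 were not called. Without WT cortex 3, Timp3, C1ql1, Khdrbs2, Rph3a, Olfm3, Dgkg, Spats2l and Ap1s2 were not called. Without WT hippocampus 2, Timp3, C1ql1, Khdrbs2, Col25a1, Rph3a, Olfm3, Dgkg, Spats2l and Ap1s2 were not called. Without WT hippocampus 3, C1ql1, Khdrbs2 and Fabp5 were not called. Without null cortex 1, Khdrbs2, Rph3a, Olfm3, Fabp5, Dgkg, Spats2l and Ap1s2 were not called. Without null cortex 2, Khdrbs2, Rph3a, Olfm3, Fabp5 and Ap1s2 were not called. Without null hippocampus 2, C1ql1, Khdrbs2, Rph3a, Olfm3, Fabp5, Dgkg, Spats2l and Ap1s2 were not called. Over leave-outs the log2 changes were Timp3 3.50 to 4.12, C1ql1 3.29 to 4.09, Khdrbs2 3.41 to 3.83, Col25a1 3.19 to 3.67, Rph3a 1.30 to 3.44, Olfm3 1.69 to 2.91, Fabp5 1.92 to 3.11, Dgkg 1.997 to 2.72, Spats2l 2.12 to 2.53 and Ap1s2 1.31 to 2.76. With the lower Sst maximum Timp3 (2.73, adjusted p = 0.158), Olfm3 (1.65, 0.318) and Fabp5 (2.46, 0.0142) were not called. DESeq2 did not call C1ql1 (0.318). With the higher Pvalb minimum, which left WT hippocampus 2 alone in its group, the log2 changes were 3.29 for C1ql1, 3.87 for Khdrbs2 and 1.91 for Fabp5. Fabp5 was not called by edgeR with sums of at least 5 cells (adjusted p = 0.0219) or no maximum on genes (0.012). Of the markers, Tcap stood at 345, 296 and 299 CPM in cortex and 78.1 and 122 in hippocampus and Cox6a2 at 521, 544 and 686 CPM in cortex and 427 and 507 in hippocampus, and edgeR called neither. Tcap was called by DESeq2 (-1.67, adjusted p = 0.00821) and without the low-count filter (-1.85, 6.07e-04). The count rested on single libraries: it was 36 without WT cortex 2, 17 without WT cortex 1, 4 without WT cortex 3, 3 without WT hippocampus 2, 32 without WT hippocampus 3, 5 without null cortex 1, 13 without null cortex 2 and 4 without null hippocampus 2. Genes called lower numbered 1 without WT cortex 1, 7 without WT cortex 2 and 2 without WT hippocampus 3.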

How the data were processed

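Single cells of 4 samples, which hold 10 libraries, were counted by the authors with Cell Ranger (2.1.1 per the labels, 3.0.2 per the file headers), and the deposited values are raw UMI counts for 43348 genes, with no normalization. Libraries were told apart by barcode suffix and matched to replicates by cell number. Members and gene lists were chosen with earlier results of these data known. Counts were summed per library and cell class over at least 10 cells and tested with edgeR 4.0.16 (quasi-likelihood, TMM, filterByExpr, Benjamini-Hochberg) in R 4.3.3, with the rule genes left out before adjustment; DESeq2 1.42.0 was an alternative. Fits were tested on simulated counts drawn independently for each sum, with a fixed spread not taken from the data. The simulation lacked the pairing of both sums within a library, so it does not show the error rate of the class calls. Scrublet (scanpy 1.11.5, expected rate 6%) marked doublets, which stayed in. Detection shares used cells thinned to 1000 UMIs. Genes named are the 5 markers, Grin1, up to 4 called and 2 uncalled genes per list, and per comparison the 10 largest called rises and falls at 20 or more CPM in the higher group with the same direction in each library pair, or no overlap. Some genes of the lists are withheld and not reported here, though list counts include them. Gene positions come from GENCODE on GRCm38. The study's methods give each replicate number 1 chemistry in both regions and genotypes, and on that ground the number was taken to pair libraries. Deviations of same-numbered WT libraries of both regions correlated at 0.351 (replicate 2) and 0.03 (replicate 3) over genes, and WT cortex 1 with WT hippocampus 3 at 0.269. With 2 hippocampal libraries the other pairs have the same values with the sign turned, so the correlations do not separate same from different numbers. The number was a block only as an alternative between genotypes and regions.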

Additional observations from a re-analysis of the deposited data

Results flagged for a closer look

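Cox6a2, Scg2 and Spon1 differed in their Pvalb-to-other difference between genotypes by the test of that difference in edgeR. The log2 class difference was -1.02 in null relative to WT for Cox6a2 (adjusted p = 0.00126), -1.06 for Scg2 (adjusted p = 9.21e-04) and 2.88 for Spon1 (adjusted p = 0.00126). Without null cortex 2 they were -0.54, -0.96 and 0.42 and none was called. Without WT cortex 3 they were -0.89, -0.93 and 2.41 and none was called, and without WT cortex 1 Scg2 was not called (-1.01). DESeq2 called Scg2 and neither of the others, and with no replicate block none was called (-0.93, -1.06 and 2.46). Spon1 was not called with the higher Pvalb minimum (1.83), nor Cox6a2 with the Sst-high comparator (-0.63).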

How the results depend on the processing

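In WT, Pvalb cells against other interneurons gave 705 higher and 815 lower by DESeq2 and 158 and 312 with no replicate block (library term left out); leaving out a library gave 699 to 1530 higher and 726 to 1884 lower. In null, an adjusted p under 0.05 gave 716 and 891, DESeq2 309 lower, no replicate block 14 and 28, and the Sst-high comparator 802 lower; leave-outs gave 125 to 430 and 134 to 610. The difference between genotypes gave 11 genes at 0.05, 1 by DESeq2, 0 with no replicate block, 30 without the low-count filter, 12 with the higher Pvalb minimum and 6 with the Sst-high comparator; leave-outs gave 1 to 40.

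Null against WT Pvalb cells gave 1 gene by DESeq2 and 11 without the low-count filter; leave-outs gave 0 to 1, and the replicate block gave 0. For Grin1 the log2 change was -2.35 by DESeq2 and -2.46 without the filter, both called, -2.45 with the replicate block, -1.29 and -2.99 within replicates 1 and 2, and -2.69 to -1.86 over leave-outs. Hippocampus against cortex gave 42 higher and 9 lower at 0.05, 43 and 5 by DESeq2, 27 and 8 with the replicate block, 88 and 24 without the filter, 39 and 2 with the higher Pvalb minimum, 37 and 6 with sums of at least 5 cells, and 1 lower with library-size scaling or the lower Sst maximum; leave-outs gave 3 to 36 higher and 0 to 7 lower. The higher Pvalb minimum, 1000 CPM and 3 UMIs, left WT hippocampus 3 with 9 Pvalb cells, under the 10 needed for a sum. In that setting WT hippocampus 2 stood alone against the WT cortical libraries. Its counts between regions thus do not show the effect of the Pvalb minimum by itself. Among the genes named between regions or genotypes the replicate block ended the calls of Cbln4 and Trpc5 and changed no other.

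The share difference ran from -9.26 to 0.949 points over leave-outs, turning sign without null cortex 2. With the Sst-high comparator Hapln1 turned to 2.22, called, and Cacna2d1 to 0.17, not called. The other turns were of genes called in neither setting. Snap25 turned to -0.016 by DESeq2, -0.044 with no replicate block, -0.0051 without the filter and -0.075 with the Sst-high comparator. Over leave-outs Snap25 ran from -0.0756 to 0.0938, Sox6 from -0.179 to 0.0033 and the genotype difference of Tcap from -1.20 to 0.963. Grin3a between genotypes turned to -0.313 with the higher Pvalb minimum and ran from -0.343 to 1.47 over leave-outs. Syt2 between regions turned to 0.21 with the higher Pvalb minimum, which left WT hippocampus 2 alone in its group. Over leave-outs Syt2 between regions ran from -0.437 to 0.181. The causes were not tested. Of 1471 values of 87 genes followed in the WT class comparison, 1419 kept direction and call, 41 lost the call and 11 changed sign. For the region comparison 366 of 474 did and 103 lost the call. Sums of at least 5 cells and no maximum on genes were chosen after seeing the data. Null cortex 1 holds 20 Pvalb cells and WT hippocampus 3 holds 15, which limits their precision. Of genes named for the WT class comparison, Calb1, Egr1, Fos, Gabrg1, Grin2a, Slc12a2 and Spp1 lost their call by DESeq2. With no replicate block Abat, Aldoc, Ddit3, Egr1, Erbb4, Fos, Gabra2, Gabrg1, Grin2a, Grm4, Hapln1, Kcnc2, Nptx2, Scn1a, Slc12a2 and Spp1 did, and in null Tac1, Tcap and Cox6a2.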
